A study of Mus musculus with 18 samples.

Results

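Gene expression in the nucleus accumbens (NAc) of mice susceptible to social defeat was compared with that of control mice that had not been defeated. The comparison rests on 6 of the 18 arrays of the study, 3 of susceptible and 3 of control tissue, and covers 44505 probes. All animals were male C57BL/6J mice of 10.5 weeks, with no transgene or further treatment named, and each array carried RNA from tissue pooled over 4 animals. Defeated mice had been classed as susceptible or unsusceptible, with alike avoidance scores among the pools of a group. The 3 unsusceptible NAc pools and the susceptible and control pools of the ventral tegmental area (VTA) of the midbrain are set beside the NAc values. All 18 arrays also share the normalization and the estimate of the spread. The SE and p-value of each change thus draw on arrays outside the comparison as well. P-values measure the spread between pools, and a pool hides how its 4 animals differed. Defeat and susceptibility cannot be told apart in susceptible against control mice, since both separate these groups.

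In social defeat, a mouse is attacked by a larger aggressor over repeated encounters, and some of the defeated animals later avoid other mice while others do not. The NAc, part of the ventral striatum, is built mostly of medium spiny neurons, which carry D1 or D2 dopamine receptors and receive dopamine from the VTA. Brain tissue that is dissected without flushing the vessels also holds blood: young red cells still carry globin mRNA, and neutrophils carry the mRNA of the calcium-binding proteins S100A8 and S100A9. No source used here says whether the vessels were flushed.

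The arrays fitted their labelled structure. The summed level of 24 medium spiny neuron genes common to both pathways lay between 17.70 and 18.03 log2 units in the 6 NAc pools and between 14.63 and 14.73 in the 6 VTA pools of the same behaviour groups, and that of 11 dopamine neuron genes lay between 12.12 and 12.35 in the NAc and between 16.01 and 16.47 in the VTA. Median intensities of the 6 NAc arrays before normalization ran from 159.7 to 191.2, and correlations over all probes ran from 0.9882 to 0.9907 within control pools, from 0.9926 to 0.994 within susceptible pools and from 0.9878 to 0.9939 between the groups. Control pool 3 stood apart from the other 5 arrays, at 33.8 on their first principal component (30.8% of the variance), where the others lay between -14.4 and 1.3, and it had the lowest array weight of all 18 arrays, 0.587. Results that rest on it are given with and without it. Among the unsusceptible NAc pools, pool 3 had a median intensity of 253.1 before normalization, the highest of all 18 arrays, and an array weight of 0.708.

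Adult globin genes and 3 genes found in neutrophils were higher in the susceptible NAc, while most other genes of red cells and neutrophils did not pass. Adult globin genes rose by 1.22 to 1.85 log2 units (2.33-fold to 3.61-fold), and Lcn2, S100a8 and S100a9, genes of neutrophils and of inflamed tissue, rose by 1.35 to 1.63. Rises of 0.50 to 1.25 were found for the endothelial transcription factor gene Sox18, for 1 probe each of Osbpl8, Bptf and 9930021J03Rik, and for 9 probes without a gene name, and 1 probe of the splicing gene Prpf4 fell. In total 29 of the 44505 probes (0.0652%) passed limma's moderated test at a Benjamini-Hochberg adjusted p under 0.05, 28 higher (0.0629%) and 1 lower (0.00225%) in susceptible pools, with adjusted p between 0.00524 and 0.0446 and the next probe at 0.0526. They covered 12 genes, and in all 29 the susceptible pools lay wholly on one side of the control pools, as 5.82% of all probes did upward and 6.65% downward. At an unadjusted p under 0.05 there were 1905 higher (4.28%) and 1756 lower (3.95%) probes.

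The number of calls rested on single pools. It fell to 0 without susceptible pool 1 (1575 higher and 1457 lower at an unadjusted p under 0.05) and to 0 without control pool 3 (1517 and 1231), to 6 without susceptible pool 3 and to 13 without control pool 1, and rose to 62 without susceptible pool 2 and to 143 without control pool 2. Every one of the 29 probes kept its direction under all 17 alternatives tried. Since the pools of all 29 lay wholly apart, this outcome was all but fixed and is no measure of firmness. Of the 29, 12 belonged to adult globin genes.

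Hbb-bt and Hbb-bs are the adult beta globin genes of this strain, on chromosome 7. Hbb-bt lay at 10.53, 9.97 and 9.46 log2 units in control pools 1 to 3 and at 12.13, 11.89 and 11.49 in susceptible pools 1 to 3. The lowest susceptible pool was thus above the highest control pool, and the rise was 1.85 ± 0.25 log2 units (SE, 3 against 3 pools, adjusted p 0.00524). By its brightest probe, Hbb-bs lay at 13.59, 13.75 and 13.66 in control and at 15.17, 15.12 and 14.94 in susceptible pools, with no overlap, a rise of 1.41 ± 0.22 (adjusted p 0.0114). The alpha globin gene Hba-a1, on chromosome 11, lay at 13.38, 13.27 and 13.04 in control and at 14.61, 14.53 and 14.37 in susceptible pools. It rose by 1.28 ± 0.21 (adjusted p 0.0169), again with all susceptible pools above all controls. The probe annotated to Hbb-b2, the name of a beta globin gene of another mouse haplotype, lay at 8.96, 8.44 and 8.63 in control and at 10.06, 9.73 and 9.91 in susceptible pools, a rise of 1.22 ± 0.19 (adjusted p 0.0114). In bulk tissue, more cells of a type and more RNA per cell cannot be told apart.

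All 9 probes of Hbb-bs rose, by 1.26 to 1.76 log2 units. Adult globin genes are close copies of each other and a probe for one may bind the mRNA of another, so the 12 adult globin probes are not 12 separate measurements. The 4 probes of the embryonic globin genes, which adult red cells do not use, did not pass. Those of Hbb-bh1 differed by 0.11 and 0.01, that of Hbb-y by 0.07 and that of Hba-x by 0.01 log2 units, and their pools overlapped. No call on an adult globin probe was kept without susceptible pool 1 (changes of 1.15 to 1.71, adjusted p from 0.104 to 0.178) or without control pool 3 (changes of 1.18 to 1.71, adjusted p from 0.0967 to 0.118), while 6 of 12 were kept without susceptible pool 3 and 7 of 12 without control pool 1.

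**Figure D1:**
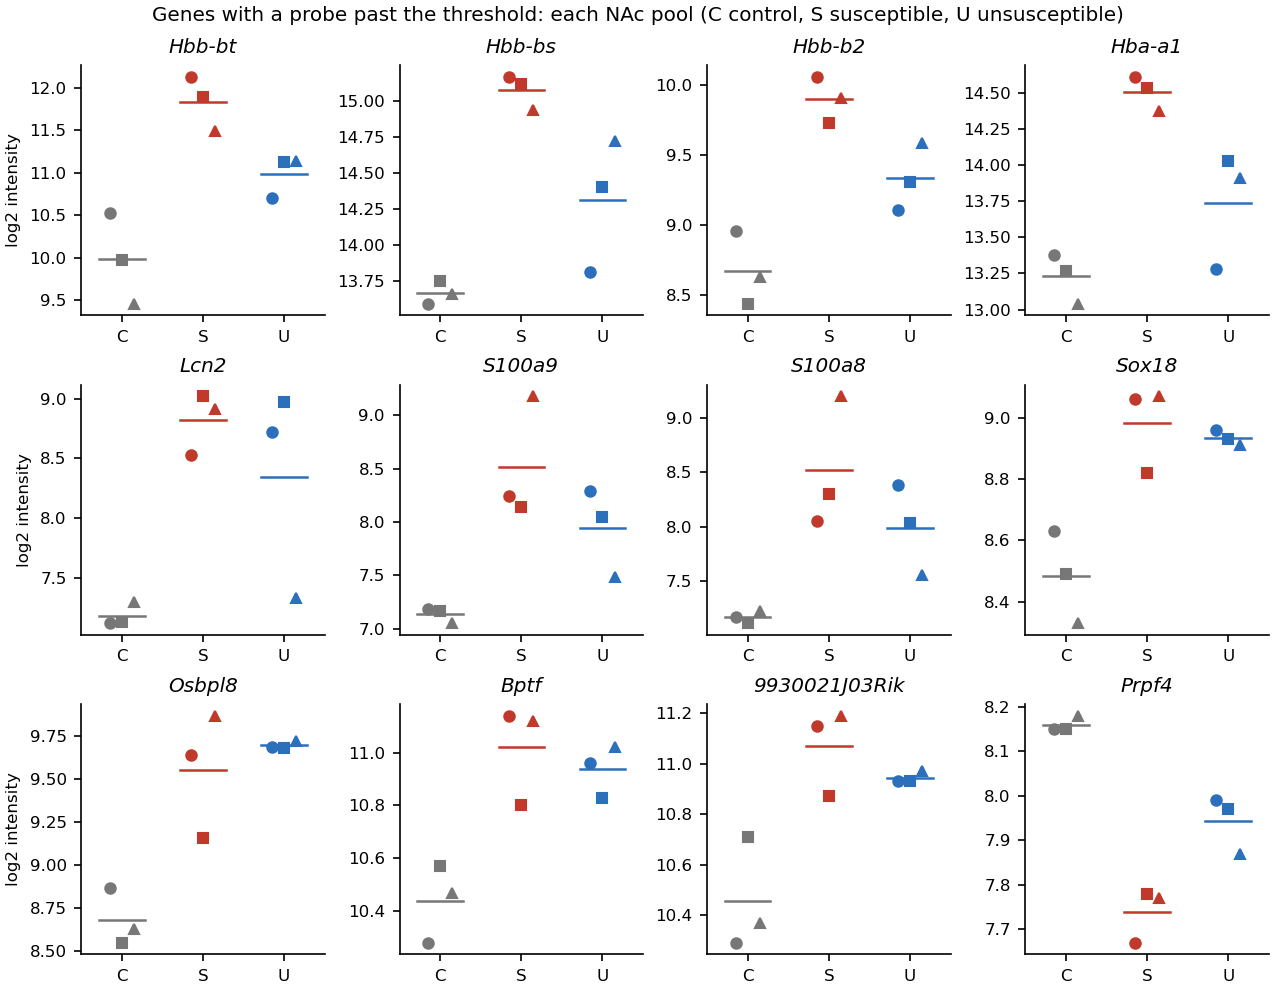
Log2 intensity of the 12 genes with a probe past the threshold (for Hbb-bs its brightest probe), in each NAc pool; circles, squares and triangles are pools 1, 2 and 3, horizontal lines are group means, and each panel has its own vertical axis that does not start at 0. All susceptible pools lie above all control pools in 11 panels and below them for Prpf4, and the unsusceptible pools of the globin genes lie mostly between.

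Red cell genes are driven by GATA1, which binds the letters GATA, and by KLF1, which binds CACCC. The promoters of 3 globin genes that rose and of Alas2, the red cell enzyme that starts haem synthesis, are shown to let a reader see these letters; they span 250 bases before to 50 bases after the transcript's start, are taken from RefSeq on GRCm38.p6, and are written 5′ to 3′ on the gene's strand. Capitals mark GATAA and CACCC read on either strand (TTATC and GGGTG are their reverse complements).
Hbb-bs (chr7:103827879-103828178, minus strand): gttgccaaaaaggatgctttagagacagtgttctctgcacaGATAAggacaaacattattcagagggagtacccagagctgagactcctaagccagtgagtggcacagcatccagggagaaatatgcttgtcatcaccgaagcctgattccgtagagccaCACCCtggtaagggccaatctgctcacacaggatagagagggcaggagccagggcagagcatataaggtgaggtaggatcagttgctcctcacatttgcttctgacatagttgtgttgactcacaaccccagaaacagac
Hbb-bt (chr7:103813874-103814173, minus strand): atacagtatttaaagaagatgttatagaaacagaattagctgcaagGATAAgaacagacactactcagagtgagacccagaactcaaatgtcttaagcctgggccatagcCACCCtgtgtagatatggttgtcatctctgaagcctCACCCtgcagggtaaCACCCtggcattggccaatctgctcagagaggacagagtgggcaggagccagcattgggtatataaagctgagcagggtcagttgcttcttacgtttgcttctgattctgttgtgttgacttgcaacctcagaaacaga
Hba-a1 (chr11:32283422-32283721, plus strand): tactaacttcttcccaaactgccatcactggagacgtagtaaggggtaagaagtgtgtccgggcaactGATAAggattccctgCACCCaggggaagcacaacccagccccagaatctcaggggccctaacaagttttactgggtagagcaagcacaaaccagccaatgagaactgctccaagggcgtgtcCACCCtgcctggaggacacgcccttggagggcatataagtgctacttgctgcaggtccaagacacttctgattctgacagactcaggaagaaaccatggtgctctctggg
Alas2 (chrX:150547167-150547466, plus strand): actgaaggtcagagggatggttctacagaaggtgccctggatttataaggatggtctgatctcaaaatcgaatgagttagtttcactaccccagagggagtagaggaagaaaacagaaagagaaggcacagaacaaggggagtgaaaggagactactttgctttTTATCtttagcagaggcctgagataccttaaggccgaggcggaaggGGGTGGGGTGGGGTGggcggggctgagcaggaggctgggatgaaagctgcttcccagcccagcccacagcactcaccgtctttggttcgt
All 4 windows hold both GATAA and CACCC, as did 12.6% of the 32851 mouse promoters of the same length; 25.4% of these held GATAA and 57.5% held CACCC. These matches describe the letters only. No promoter of Hbb-b2 is shown.

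Beyond the adult globins, no red cell gene passed. Of 24 red cell genes on the list used, 19 were measured; the 4 adult globin genes rose past the threshold and 0 fell, where 0.0637% of the 17274 genes did so by their brightest probe. Alas2 lay at 8.44, 8.31 and 7.86 log2 units in control and at 9.05, 9.29 and 8.76 in susceptible pools. Its pools did not overlap and it differed by 0.83 ± 0.19, but it did not pass (adjusted p 0.125). Slc4a1, the anion exchanger of the red cell membrane, lay at 7.07, 7.31 and 7.46 in control and at 7.94, 7.62 and 7.32 in susceptible pools, which overlap. The erythroid transcription factor genes differed by -0.04 (Gata1) and -0.24 (Klf1, adjusted p 0.527), and the remaining 11 members, the embryonic globins, Epb42, Rhd, Trim10, Bpgm and Fech among them, by -0.17 to 0.11. The median of the 19 was 0.03, beside -0.02 for all genes, and the summed level of the list, which the globins dominate, lay between 14.66 and 14.80 in control and between 15.87 and 16.12 in susceptible pools.

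In the VTA the globin probes lay higher in susceptible pools as well, with 1 call. In VTA pools the brightest Hbb-bs probe lay at 14.80, 13.63 and 13.89 in control and at 15.59, 15.20 and 15.08 in susceptible mice, with VTA control pool 1 close to the susceptible pools but below them. The 12 adult globin probes were higher in susceptible VTA by 0.87 to 1.43 log2 units, and 1 of them passed there (101660133 of Hbb-bs, 1.32 ± 0.20, adjusted p 0.0409), the only call of that comparison (0.00225% of probes; 1539, or 3.46%, at an unadjusted p under 0.05) and one that was lost when VTA arrays were fitted alone. The difference of the changes between NAc and VTA did not pass for any of the 12, with adjusted p of 0.855 or more. For Hbb-bt it was 0.55 ± 0.35 and for the brightest Hbb-bs probe 0.23 ± 0.32 log2 units.

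In NAc unsusceptible pools 1 to 3, Hbb-bs lay at 13.81, 14.40 and 14.72 and Hbb-bt at 10.70, 11.13 and 11.14. Against the same 3 control pools, the 12 adult globin probes were higher in unsusceptible pools by 0.51 to 1.00 log2 units, where susceptible pools were higher by 1.22 to 1.85; the 2 comparisons share their controls. None of the 12 passed in unsusceptible against control pools, with adjusted p of 0.0998 for Hbb-bt, 0.241 for the brightest Hbb-bs probe and 0.341 for Hba-a1. Tested directly, susceptible against unsusceptible pools did not pass for any of the 12 (adjusted p from 0.613 to 0.999). Susceptible pools were higher by 0.57 (Hbb-b2) to 0.85 (Hbb-bt) log2 units. In 11 of the 12, all susceptible pools lay above all unsusceptible pools. The share of all probes that did so was not counted and the 12 are not separate measurements, so nothing is concluded from that count.

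Genes of neutrophils were the other blood cell group with calls. Lipocalin 2 (Lcn2), which binds bacterial iron carriers and is stored in neutrophil granules but is also made by brain endothelium and astrocytes in inflammation, lay at 7.12, 7.13 and 7.30 log2 units in control and at 8.53, 9.02 and 8.91 in susceptible pools. It rose by 1.63 ± 0.30 (3.1-fold, adjusted p 0.0381). S100a9 lay at 7.18, 7.17 and 7.05 in control and at 8.24, 8.14 and 9.18 in susceptible pools, a rise of 1.38 ± 0.26 (adjusted p 0.0389). S100a8, its partner in the calprotectin dimer, lay at 7.17, 7.11 and 7.22 in control and at 8.05, 8.30 and 9.20 in susceptible pools, a rise of 1.35 ± 0.26 (adjusted p 0.0432). No susceptible pool overlapped with a control pool in these 3 genes, and for both S100 genes susceptible pool 3 was by far the highest. All 3 control levels lay below the median probe (7.39), and with no background measure they are not shown to be above background. The log2 changes may therefore understate the true ones, which was not tested.

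Calls on these 3 genes were lost under more alternatives than those on the adult globin probes. All 3 were kept by limma with median scaling (adjusted p from 0.00128 to 0.00136) and with only NAc arrays fitted (0.00906 to 0.0169). They were also kept with the 6 arrays alone (7.38e-06 to 0.0249) and with the replicate block (0.025 to 0.03). None of the 3 was kept among bright probes alone (adjusted p from 0.0664 to 0.0761) or without control pool 1 (0.106 to 0.111), control pool 3 (0.125 to 0.161), susceptible pool 1 (0.104 to 0.13) or susceptible pool 3 (0.318 to 0.487). Without susceptible pool 3 the change of S100a9 was 1.06 and that of S100a8 was 1.01, while that of Lcn2 was 1.59. Without control pool 2 the call on S100a8 was lost (0.0563), and without susceptible pool 2 that on Lcn2 (0.0842). With an offset of 50 Lcn2 alone was kept.

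C/EBP factors, which drive granule genes in myeloid cells, bind sites of the form TTGCNNAA. The promoters of these 3 genes are shown with that motif, read on either strand, in capitals, from the same source and window as above.
Lcn2 (chr2:32387690-32387989, minus strand): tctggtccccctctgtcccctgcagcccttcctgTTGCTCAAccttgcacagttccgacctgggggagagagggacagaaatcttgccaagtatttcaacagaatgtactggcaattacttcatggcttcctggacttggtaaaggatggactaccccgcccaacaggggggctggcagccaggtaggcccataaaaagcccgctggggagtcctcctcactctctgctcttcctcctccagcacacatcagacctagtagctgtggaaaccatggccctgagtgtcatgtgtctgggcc
S100a9 (chr3:90695672-90695971, minus strand): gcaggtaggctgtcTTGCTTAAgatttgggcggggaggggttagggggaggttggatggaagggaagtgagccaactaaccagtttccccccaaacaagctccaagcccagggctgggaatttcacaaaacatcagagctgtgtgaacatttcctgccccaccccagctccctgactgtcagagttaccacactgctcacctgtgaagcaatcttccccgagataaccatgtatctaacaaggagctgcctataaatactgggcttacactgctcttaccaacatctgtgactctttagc
S100a8 (chr3:90668821-90669120, plus strand): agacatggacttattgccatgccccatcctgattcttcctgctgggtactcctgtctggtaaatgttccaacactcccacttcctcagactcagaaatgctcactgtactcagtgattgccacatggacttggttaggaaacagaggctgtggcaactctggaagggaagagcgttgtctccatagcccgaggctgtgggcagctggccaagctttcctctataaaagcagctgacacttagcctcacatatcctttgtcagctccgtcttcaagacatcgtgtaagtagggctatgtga
The motif is in the windows of Lcn2 and S100a9 and not in that of S100a8, and 10.8% of the 32851 promoters held it. S100a8 and S100a9 lie close to each other on chromosome 3.

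Of 22 neutrophil genes on the list, 19 were measured, and the 3 above were the ones that rose; 0 fell. The granule genes Ngp, Camp, Ltf, Mpo, Elane, Prtn3, Ctsg, Mmp8 and Mmp9 differed by -0.08 to 0.07 log2 units, with overlapping pools. Cxcr2, the chemokine receptor of mature neutrophils, differed by 0.21 (adjusted p 0.648), Retnlg by 0.21 (0.616) and the G-CSF receptor gene Csf3r by -0.22 (0.667). Only 6 of the 19 probes were bright, so most of these genes had little signal in either group. The summed level of the list lay between 11.54 and 11.62 in control and between 11.81 and 12.11 in susceptible pools.

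In the VTA, Lcn2 lay at 7.09, 7.02 and 7.20 in control and at 8.58, 8.81 and 8.58 in susceptible pools, S100a8 at 7.20, 6.93 and 6.97 and at 8.56, 7.98 and 8.96, and S100a9 at 7.38, 7.31 and 7.05 and at 8.53, 7.64 and 9.03. No pool of one group overlapped with the other, the changes were 1.56, 1.47 and 1.15, and none passed there (adjusted p 0.11, 0.0728 and 0.438). In the unsusceptible NAc, pools 1 and 2 of these genes lay near the susceptible pools and pool 3 lower, with Lcn2 at 8.72, 8.97 and 7.33, S100a8 at 8.38, 8.03 and 7.55, and S100a9 at 8.29, 8.05 and 7.48. Unsusceptible pool 3 was the array of highest median intensity before normalization, 253.1. Susceptible and unsusceptible pools did not differ past the threshold by limma in any of the 3 genes (adjusted p 0.999).

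**Figure D2:**
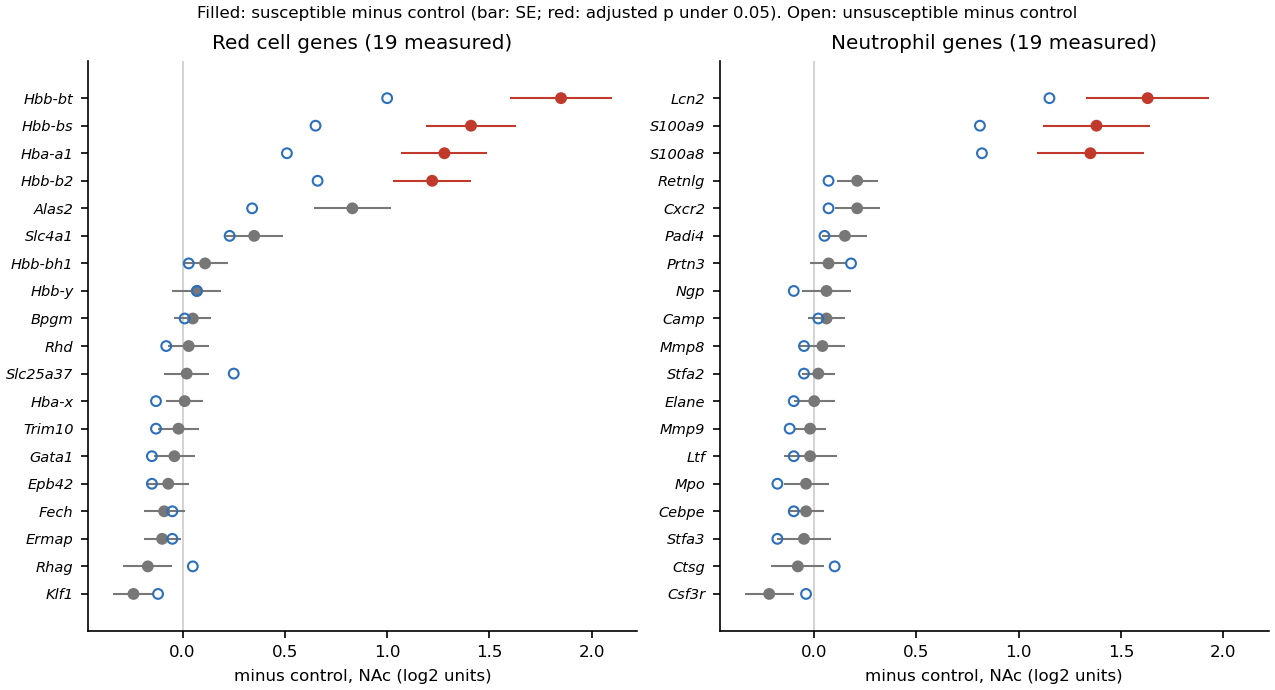
NAc change from control in log2 units, by the brightest probe, of the 19 measured red cell genes and the 19 measured neutrophil genes; filled points are susceptible minus control with the SE of the change (red where adjusted p was under 0.05), open circles are unsusceptible minus control from the same control pools. The 4 adult globin genes and Lcn2, S100a9 and S100a8 stand apart at 1.22 or more, Alas2 lies at 0.83, and the other genes lie between -0.24 and 0.35.

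Other blood, vessel and inflammation genes gave 1 call besides Lcn2. Sox18, a transcription factor gene of vessel endothelium on chromosome 2, lay at 8.63, 8.49 and 8.33 in control and at 9.06, 8.82 and 9.07 in susceptible pools. It rose by 0.50 ± 0.09 (adjusted p 0.0389), and its call was lost with median scaling (0.61, adjusted p 0.617) and without control pool 3 (0.43, 0.19), susceptible pool 1 (0.46, 0.284) or susceptible pool 3 (0.46, 0.437). The call was also lost with only NAc arrays fitted (0.50, limma adjusted p 0.129) and with the 6 arrays alone (0.48, 0.25). Without the 3 arrays that stood apart, control pool 3 among them, it was lost too (0.42, 0.175). In unsusceptible pools Sox18 lay at 8.96, 8.93 and 8.91, and in the VTA it differed by 0.16. Sox18 was the 1 call among 21 measured endothelial genes, whose median was 0.02 and whose summed level ran from 14.00 to 14.26 in control and from 14.12 to 14.29 in susceptible pools. The claudin gene Cldn5 is an entry of this list, and its own values are not reported here.

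Other genes of inflamed vessels, monocytes and interferon response, named as those of smallest p in their lists, did not pass. Lrg1, a glycoprotein gene of activated endothelium and neutrophils, lay at 7.79, 7.83 and 7.91 in control and at 8.33, 8.49 and 8.77 in susceptible pools (0.68 ± 0.19, adjusted p 0.255), and the adhesion molecule gene Icam1 differed by 0.29 (0.361), the clotting factor gene Vwf by 0.40 (0.424), the pericyte gene Rgs5 by 0.36 (0.29), Plac8 by 0.36 (0.216) and the interferon-induced Rsad2 by 0.46 (0.142). Of 19 measured inflammation-induced genes, 1 rose (Lcn2), and 5 (26.3%) lay above and 2 (10.5%) below all controls, as 4.47% and 8.27% of all genes did. The lists of 13 lymphocyte and monocyte genes, 6 platelet genes, 18 interferon-induced genes, 18 iron and haem handling genes and 17 microglia genes had 0 calls, with medians of -0.06, 0.01, 0.02, -0.05 and 0.00; at an unadjusted p under 0.05 by limma they held 5 higher and 3 lower genes, where 3.36% of all genes by their brightest probe were higher and 5.01% lower. Of 21 glucocorticoid receptor and target genes 1 rose, again Lcn2, while Tsc22d3, a classic target of the receptor, differed by -0.36 (adjusted p 0.361).

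The remaining 12 probes that rose included 3 with a gene name. The lipid transfer protein gene Osbpl8, on chromosome 10, lay by its brightest probe at 8.87, 8.55 and 8.63 in control and at 9.64, 9.16 and 9.87 in susceptible pools, a rise of 0.87 ± 0.15 (adjusted p 0.0225). In unsusceptible pools the probe lay at 9.69, 9.68 and 9.72, a rise of 1.02 ± 0.15 over the same controls (adjusted p 0.0336), the only call of that comparison (0.00225% of probes; 5096, or 11.5%, at an unadjusted p under 0.05). That call was lost among bright probes, with array weights and without control pool 3, unsusceptible pool 1 or unsusceptible pool 3. Without the 3 arrays that stood apart, control pool 3 among them, it was lost too, as the 1 call left was a lower one. In the VTA the Osbpl8 probe differed by -0.22. The other probes of Osbpl8 differed by 0.10 and -0.03, so the gene's probes disagree.

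Bptf, a subunit of the NURF chromatin remodelling complex on chromosome 11, lay at 10.28, 10.57 and 10.47 in control and at 11.14, 10.80 and 11.12 in susceptible pools, a rise of 0.58 ± 0.10 (adjusted p 0.0301). Its other probes differed by -0.19 and 0.05, again in disagreement. The uncharacterized gene 9930021J03Rik, on chromosome 19, lay at 10.29, 10.71 and 10.37 in control and at 11.15, 10.87 and 11.19 in susceptible pools, a rise of 0.61 ± 0.11 (adjusted p 0.035), and its other 3 probes differed by 0.07 to 0.32. Both genes lost the call with median scaling (changes of 0.77 and 0.80, adjusted p 0.733 and 0.716), with only NAc arrays fitted (0.58 and 0.61, 0.0924 and 0.08) and with the 6 arrays alone (0.56 and 0.59, 0.165 and 0.176), so the changes stayed as large or nearly so. Bptf was the 1 call among 23 chromatin remodelling genes (median 0.04) and Osbpl8 the 1 among 18 oxysterol-binding and membrane contact genes (median 0.04).

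The rising probes of these 3 genes and all 9 unnamed probes that rose have identifiers of 9 digits, as do the 9 Hbb-bs probes. Those of Lcn2, S100a8, S100a9, Sox18 and Prpf4 are shorter. Among bright probes, 4045 of 8368 with 9 digits and 12465 of 13885 with shorter identifiers have a gene name. Unnamed bright probes are thus mostly of the 9-digit form, whether called or not. The 12 rose by 0.55 to 1.25 log2 units, and in each of them susceptible pool 2 was the lowest susceptible pool. Pool 2 was also lowest in the median deviation of all bright 9-digit probes, at 0.011, 0.000 and 0.038 in susceptible pools 1 to 3. The share of all probes with pool 2 lowest was not counted. In unsusceptible pools the 12 were higher than the same controls by 0.37 to 1.02. The brightest of them, an unnamed probe, lay at 14.49, 15.16 and 14.67 in control and at 15.49, 15.37 and 15.57 in susceptible pools, so that control pool 2 came near. Another unnamed probe, 103140593, was the exception in the VTA, with levels of 8.99, 9.01 and 9.12 in NAc control and 10.53, 10.05 and 10.29 in NAc susceptible pools (1.25 ± 0.22) and a change of 1.10 in the VTA, close to the globin probes. The difference between NAc and VTA did not pass for any of the 12, with a lowest adjusted p of 0.403. None of the 12 kept its call without control pool 3, susceptible pool 1 or susceptible pool 3, and 2 did without control pool 1.

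**Figure D3:**
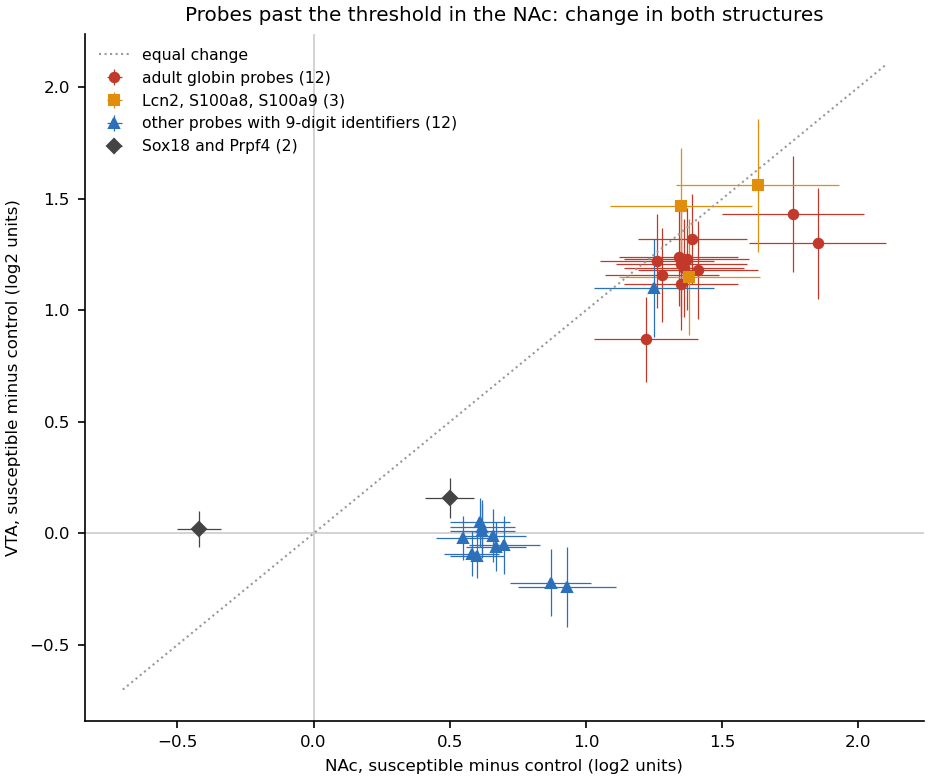
Change from control in susceptible pools of the 29 called probes in the NAc (horizontal) and in the VTA (vertical), both in log2 units with SE bars; the dotted line marks equal change. The 12 adult globin probes and Lcn2, S100a8 and S100a9 lie near that line at 0.87 or more in the VTA, while the other probes with 9-digit identifiers lie near 0 there, apart from 1 at 1.10.

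Probes with 9-digit identifiers shifted as a class. Of the 8368 bright ones (those at or above the median probe mean), 11.6% were higher and 3.44% lower at an unadjusted p under 0.05 in the susceptible NAc, while of the 13885 bright probes with shorter identifiers 2.95% were higher and 6.57% lower. The medians were 0.027 and -0.029 log2 units. In the VTA the same shares were 0.956% and 1.29% for the 9-digit class and 1.04% and 1.4% for the other. By pool, the deviations of the 2 classes from the mean of the 6 arrays were largest in control pool 1, at -0.049 for 9-digit and 0.049 for shorter identifiers, and in susceptible pool 3, at 0.038 and -0.030. With the classes normalized apart, an alternative added after these values were seen, 23 probes passed, 22 of them among the 29; all 12 adult globin probes and Lcn2, S100a8 and S100a9 kept their calls, and 6 of the 12 other probes with 9-digit identifiers did. The changes of these 12 were then 0.50 to 1.17, beside 0.55 to 1.25 before. No source used here says what the identifier length stands for, and its part in these calls was not tested further.

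**Figure D4:**
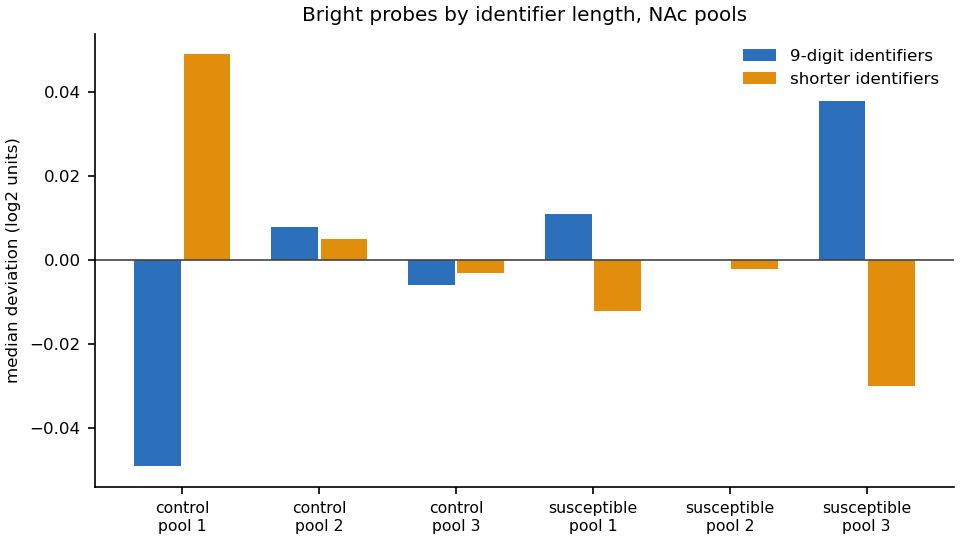
Median deviation in log2 units of bright probes from their mean over the 6 NAc arrays, for 8368 probes with 9-digit and 13885 with shorter identifiers; each bar is 1 class in 1 pool. Control pool 1 and susceptible pool 3 part the classes in opposite directions, while control pools 2 and 3 and susceptible pool 2 lie within 0.008 of 0.

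Prpf4, coding for a protein of the U4/U6 small nuclear ribonucleoprotein of the spliceosome on chromosome 4, was the one lower call. Its probe 430301 lay at 8.15, 8.15 and 8.18 in control and at 7.67, 7.78 and 7.77 in susceptible pools, a fall of 0.42 log2 units (change -0.42 ± 0.08, adjusted p 0.0432). In unsusceptible pools it lay between, at 7.99, 7.97 and 7.87, and in the VTA it differed by 0.02. The gene's brightest probe differed by -0.07 and the remaining one by -0.05. The call was lost under 11 of the 17 alternatives, among them median scaling (-0.31, adjusted p 0.865), leaving out any 1 susceptible pool (0.0518 to 0.288) and leaving out control pool 1 (0.106) or 3 (0.146). By their brightest probes, 0 of 30 spliceosome genes passed limma's test, with a median of -0.03. At an unadjusted p under 0.05 they held 0 higher and 4 lower, where 3.36% of all genes were higher and 5.01% lower.

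The next genes on the lower side, in order of p, did not pass. Nnat, a neuronal endoplasmic reticulum protein gene, lay at 9.95, 9.73 and 10.22 in control and at 9.47, 9.42 and 9.48 in susceptible pools (-0.51 ± 0.12, adjusted p 0.133). The survival factor gene Bcl2l2 differed by -0.43 (0.085), the transcription regulator gene Tsc22d1 by -0.44 (0.152), Cox16, which helps assemble cytochrome oxidase, by -0.36 (0.152) and the flap endonuclease gene Fen1 by -0.33 (0.179). Arid5b (-0.32), H2ac19 (-0.39), Cmtm3 (-0.42), Tsr2 (-0.38) and Tmem88 (-0.64) had adjusted p between 0.163 and 0.186.

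On the higher side, 10 of the 12 genes next in line were measured by 9-digit probes. The other 2 were C8b, a complement gene, and Alas2. Bright probes with a gene name, from which these were drawn, numbered 4045 with 9-digit and 12465 with shorter identifiers. Kctd12, an auxiliary subunit of GABA-B receptors, lay at 10.75, 11.43 and 11.17 in control and at 11.82, 11.56 and 11.83 in susceptible pools (0.62 ± 0.12, adjusted p 0.0623). The methyl-CpG binding repressor gene Zbtb33 differed by 0.69 (0.085), the membrane glycoprotein gene Gpm6b by 0.55 (0.0887), the reticulon gene Rtn1 by 0.58 (0.0889), the ankyrin gene Ank2 by 0.67 (0.096) and the centriolar satellite gene Pcm1 by 0.46 (0.125). The class shift given above runs in the same direction as these values, and its part in them was not tested.

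Genes of medium spiny neurons, the main cells of the tissue, gave 0 calls by limma among 8 direct pathway, 4 indirect pathway and 24 shared genes. At an unadjusted p under 0.05 there were 3 higher and 2 lower, where 3.36% of all genes were higher and 5.01% lower. The D1 receptor gene Drd1 lay at 12.86, 12.39 and 12.11 in control and at 12.83, 12.50 and 12.75 in susceptible pools, and the D2 receptor gene Drd2 at 10.53, 10.08 and 10.34 and at 10.70, 10.29 and 10.54. Both overlapped and differed by 0.24 ± 0.17 and 0.20 ± 0.22. The peptide genes Penk, Pdyn and Tac1, which mark the pathways, differed by 0.19, 0.02 and -0.19. The list medians were 0.01, 0.01 and 0.06, with median scaling 0.18, 0.21 and 0.26, and without the 3 arrays that stood apart, control pool 3 among them, -0.11, -0.09 and -0.01, so they have no settled direction.

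The spread of these neuronal genes among control pools was wide. For Drd1, Pdyn, Penk, Pde10a and Rarb control pool 1 was the highest of the 6 arrays and control pool 3 the lowest, so that the susceptible pools fell inside the control range. Bcl11b, a transcription factor gene needed for striatal neuron differentiation, was the shared gene of smallest p, at 11.59, 11.76 and 11.59 in control and 12.18, 11.97 and 12.25 in susceptible pools (0.49 ± 0.12, adjusted p 0.142); its second probe differed by 0.10 with overlapping pools. Gnal, the olfactory-type G protein alpha subunit that couples D1 and adenosine receptors in striatum, differed by 0.45 (0.496), with 10.96 in control pool 3 against 11.73 and 11.83 in the other controls. Foxp2 differed by -0.27 and Sp9 by -0.23, neither past the threshold. Among interneuron genes, Lhx6, a factor of GABAergic interneurons, differed by -0.40 (0.231).

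Of 31 genes with a known role in the accumbens after social defeat, 29 were measured and 0 passed limma's test (median 0.02; 2 higher and 3 lower at an unadjusted p under 0.05, where 3.36% and 5.01% of all genes were). Of the 29, 1 (3.45%) lay above and 2 (6.9%) below all control pools, where 4.47% and 8.27% of all genes did. Fosb, whose product ΔFosB accumulates in striatum with repeated stress, had 1 susceptible pool, at 12.18, below the highest control pool, at 12.20, while the other susceptible pools lay at 12.39 and 12.46 (0.27 ± 0.09, adjusted p 0.38). The histone methyltransferase gene Ehmt1 lay at 9.82, 9.60 and 10.04 and at 9.49, 9.59 and 9.39 (-0.32 ± 0.11, 0.388). Ikbkb, a kinase of the NF-κB pathway, differed by 0.22 (0.516). Bdnf differed by -0.03 ± 0.13, Dnmt3a by 0.00, Hdac2 by -0.09, Dvl2 by 0.10, Smarca5 by 0.21 and Baz1a by 0.17. In size, the changes of Bdnf, Dnmt3a and Hdac2 were below the median SE of 0.102 over all probes, and that of Dvl2 was near it. Those of Smarca5 and Baz1a were above it. No change smaller than 0.423 was called on any probe.

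Astrocyte genes and genes of abundant housekeeping complexes leaned below their controls without a call. Of 17 astrocyte genes 6 lay below all control pools and 1 above, where 8.27% of all genes lay below and 4.47% above; the list median was -0.12 and turned to 0.06 with median scaling. Plpp3, a lipid phosphatase gene of astrocytes, lay at 14.01, 13.95 and 14.08 in control and at 13.79, 13.75 and 13.70 in susceptible pools (-0.26 ± 0.07, adjusted p 0.168), and at 13.71, 13.70 and 13.81 in unsusceptible pools. Itih3 differed by -0.46 (0.168). The summed level of the astrocyte list ran from 16.19 to 16.22 in control, from 15.98 to 16.03 in susceptible and from 16.04 to 16.07 in unsusceptible pools.

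Of 77 oxidative phosphorylation genes, 18 (23.4%) lay below all control pools and 0 above, where 8.27% of all genes lay below and 4.47% above. The list median of -0.07 turned to 0.10 with median scaling. The complex I gene Ndufc1 was that of smallest p, at 12.84, 12.92 and 13.11 in control and 12.69, 12.60 and 12.71 in susceptible pools (-0.29 ± 0.08, adjusted p 0.231). Of 62 ribosomal protein genes, 11 (17.7%) lay below all controls and 0 above, beside the same shares of all genes. Their median of -0.06 turned to 0.14 with median scaling, and Rpl11 differed by -0.25 (adjusted p 0.334). Only 7 of the 77 and 3 of the 62 brightest probes have 9-digit identifiers; the other class had a median of -0.029 among bright probes, and its part in these lists was not tested.

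**Figure D5:**
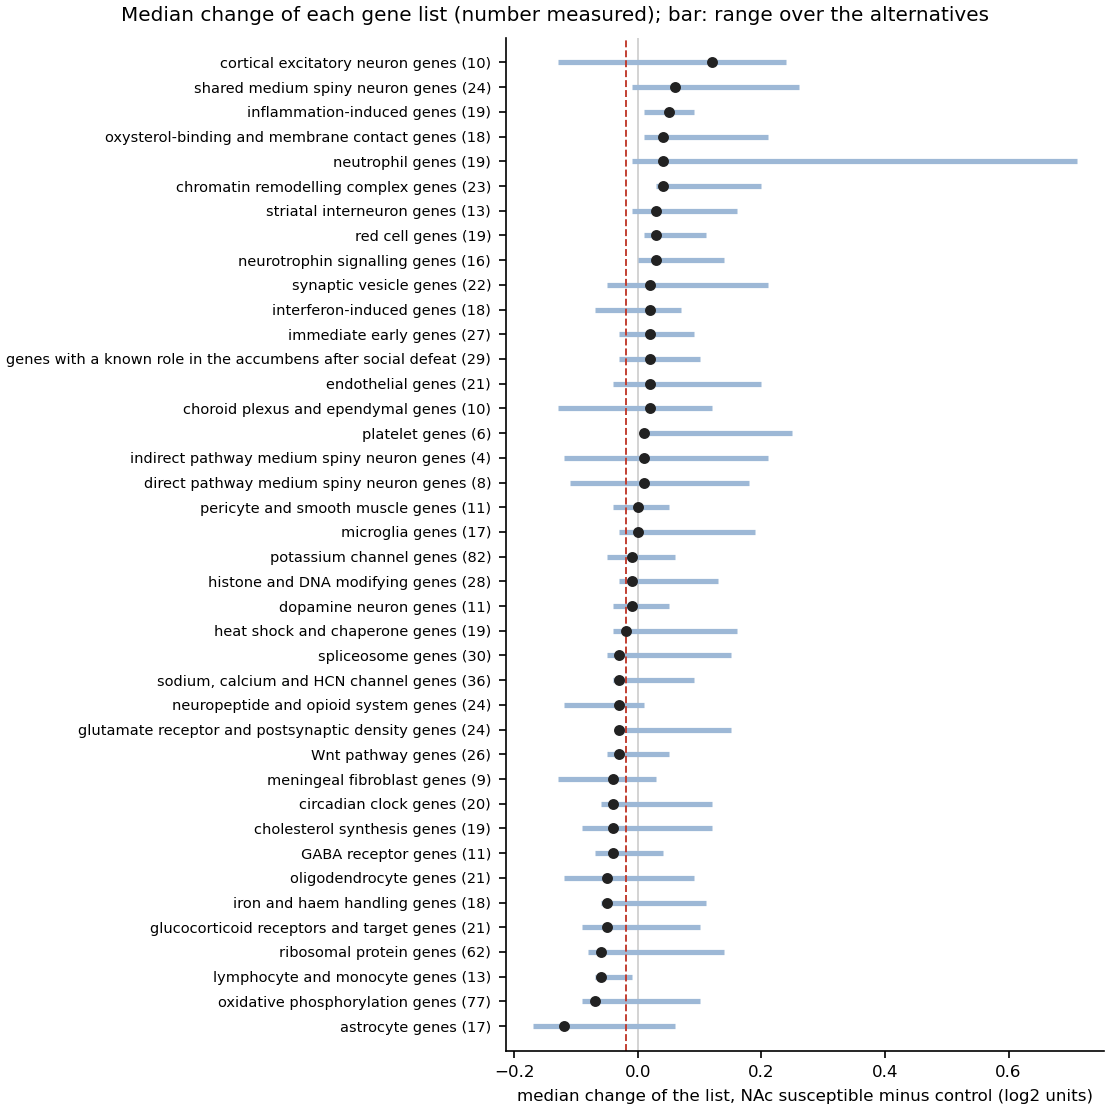
Median change in log2 units, NAc susceptible minus control, of 40 gene lists by the brightest probe of each gene; points are the reported medians, bars run from the lowest to the highest median over the alternatives, and the dashed line is the median of all genes, -0.02. All medians lie between -0.12 and 0.12, and most bars cross 0.

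Across the 41 lists, which hold 876 measured genes, 7 had a call and 34 had 0. Glutamate receptor and postsynaptic genes (24 measured), GABA receptor genes (11), potassium channel genes (82), sodium, calcium and HCN channel genes (36), synaptic vesicle genes (22), Wnt pathway genes (26), neurotrophin signalling genes (16) and immediate early genes (27) had 0 calls by limma and medians between -0.04 and 0.03, with 5 higher and 8 lower at an unadjusted p under 0.05. At that p, 3.36% of all genes were higher and 5.01% lower. The members of smallest p in these lists included the NMDA receptor subunit gene Grin2a (0.40, adjusted p 0.31) and the potassium channel gene Kcnq5 (0.52, 0.186). Of the 21 oligodendrocyte genes 3 (14.3%) lay below and 2 (9.52%) above all controls, beside 8.27% and 4.47% of all genes, and Opalin, a myelin gene, differed by -0.27 (0.424). Among chaperones, the endoplasmic reticulum chaperone gene Hspa5 differed by 0.36 (0.369).

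Whether the NAc change differed from the VTA change was tested for every probe, and 0 passed, with 2825 (6.35%) at an unadjusted p under 0.05 by limma. The genes of smallest p were Dnajc10, a disulfide reductase gene of the endoplasmic reticulum (0.64 in NAc and -0.50 in VTA), Osbpl8 (0.87 and -0.22) and Zbtb33 (0.69 and -0.34) on the higher side, and Tsr2 (-0.38 and 0.21) on the lower side, each with an adjusted p of 0.403 or more. Susceptible against unsusceptible NAc gave 1 call (0.00225% of probes; 1962, or 4.41%, at an unadjusted p under 0.05), the unnamed probe 104010026, which lay at 8.40, 8.34 and 8.34 in susceptible and at 7.82, 7.79 and 7.68 in unsusceptible pools (0.60 ± 0.09, adjusted p 0.0368). Its control pools lay at 8.34, 8.18 and 8.25, and the call was lost without any 1 of these susceptible or unsusceptible pools. For all 29 probes called against control, the adjusted p of susceptible against unsusceptible was 0.613 or more. By that test, none of them was shown to tell susceptible from other defeated mice.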

How the data were processed

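Biotin-labelled RNA from 18 pools was measured on one-colour arrays. The authors deposited 1 linear intensity per probe and array, from 61.9 to 73427.2, with no background column or detection p-value; the scanner software is not given in the sources used here. Their table of the whole series, used as an alternative, holds intensity values with equal column maxima (71810.09) and medians of 170.44 to 170.63, as quantile normalization on a linear scale leaves; the submitters' processing notes name affy, whose role is not stated. Its median absolute difference from the values used here was 0.0101 log2 units; 42571 probes were complete in it. That table is neither centred nor signed.

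Of 44547 probes, 42 were empty and 44505 were tested. Their log2 values were quantile normalized across the 18 arrays. limma 3.58.1 in R 4.3.3 fitted one mean per group on 18 arrays (12 residual and 11.7 prior degrees of freedom, intensity trend), so 6 groups share one spread; tests were two-sided with Benjamini-Hochberg adjustment over all probes and a threshold of 0.05. No background was subtracted here, so changes of dim probes (mean under 7.39) may be understated. The number of arrays limits precision. The platform table names 1 gene for 28482 probes (17274 genes), several for 11 and none for 16012; 28427 probes matched RefSeq. In lists a gene stands by its brightest probe. The code was tested on simulated data.

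The comparison, the 41 lists and the naming rule were chosen with earlier results of these data known. The values of 1 list are not reported here. The rule names every gene with a called probe by all its probes, the 12 bright genes a direction of next smallest p, the member of smallest p of each list (up to 4 where one passed), all measured red cell, neutrophil, medium spiny neuron and known-role genes, the 5 a direction of smallest p between structures and between susceptible and unsusceptible pools, and the 5 genes most like Hbb-bs and Lcn2.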

Additional observations from a re-analysis of the deposited data

How the results depend on the processing

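The 29 calls of susceptible against control NAc became 18 among bright probes, 19 with the 6 arrays alone, 5 without the 3 arrays that stood apart (control pool 3, NAc unsusceptible pool 3 and VTA unsusceptible pool 3) and between 0 and 143 with 1 pool left out. They were 20 with median scaling, 29 in the authors' table, 26 with an offset of 50 or with no intensity trend, 24 with NAc arrays fitted alone, 25 with array weights and 23 with identifier classes normalized apart, which was chosen after seeing the data. All 29 probes kept their direction under each of the 17 alternatives, which their wholly separate pools all but fixed in advance.

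The single VTA call became 11 with median scaling or the 6 arrays alone, 13 with array weights and 14 without the 3 arrays, and 0 among bright probes, with VTA arrays alone, with no trend or with the replicate block; with 1 pool left out it ranged from 0 to 15. The NAc against VTA difference gave 0 calls, 7 with the block and 0 to 1 with 1 pool left out. Susceptible against unsusceptible gave 0 with median scaling, NAc arrays alone, without the 3 arrays or with any 1 pool left out (0 to 0), and 12 with the 6 arrays alone. Unsusceptible against control gave 1229 with median scaling (1186 higher), 4 with NAc arrays alone, 2 with the 6 arrays alone, 203 with the block, 0 among bright probes or with array weights, and 0 to 404 with 1 pool left out. Without the 3 arrays that stood apart that comparison gave 1 call, a lower one. The median of all genes was -0.019 with quantile normalization and 0.066 with median scaling.

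With the replicate number as a block, 79 probes passed in susceptible against control NAc, 29 of them the same as before. Same-numbered susceptible and control NAc pools deviated from their group means with correlations of 0.084, 0.198 and -0.004, so the numbers were not taken as pairs. Groups of 3 pools and intensities with no background measure limit what could be called, above all for dim probes.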

Other observations

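Over all 18 arrays, the gene outside the globins whose level was most like that of Hbb-bs was Alas2 (Pearson r 0.90), followed by the interferon-induced gene Rsad2 (0.79) and the dim probes of Socs5 (0.78), Col11a1 (0.78) and 2810403D21Rik (0.74). For Lcn2 these were S100a8 (0.87), Olfr1158 (0.86), S100a9, Enthd1 and Gm725 (0.80 each). These are descriptions over 18 arrays that share structure and group, and Olfr1158, Enthd1 and Gm725 are dim.

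Between susceptible and unsusceptible NAc pools, the bright named probes of smallest p did not pass. Ddx27, an RNA helicase gene, differed by 0.52 ± 0.10 log2 units (limma adjusted p 0.238), with 9.09, 9.13 and 9.02 in susceptible, 8.71, 8.56 and 8.41 in unsusceptible and 9.08, 9.14 and 8.95 in control pools. The second probe of Bcl11b differed by 0.61 (0.408), Ankrd11 by 0.73 (0.471), the synaptic vesicle calcium sensor gene Syt1 by 0.60 (0.471) and Tnrc6b by 0.45 (0.471), while the single-strand DNA binding gene Nabp2 differed by -0.42 (0.432), DNA ligase 1 (Lig1) by -0.39 (0.471) and the synapse organizer gene Cbln1 by -0.72 (0.613). In each of these genes apart from Cbln1, susceptible and control means differed by 0.00 to 0.20, and the unsusceptible mean lay farther from both.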
